A study of Rattus norvegicus with 9 samples.

Results

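The Kruppel-like factors are a family of transcription factors, and the transcripts of 10 of them, Klf2, Klf4, Klf5, Klf6, Klf7, Klf9, Klf10, Klf11, Klf13 and Klf15, were followed here in rat kidneys. The probes of these members were taken by gene name from the annotation of the array. They were measured by 11 of the 30367 gene probes on the array, since Klf5 had 2 probes. A filter on low signal was passed by 9 of the 11 probes, 1 for each of 9 genes, and by 15628 of all gene probes.

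The donors were Fisher F344 rats, whose left kidney was taken after 20 min. of warm ischaemia, that is, with the artery clamped at body temperature. The NP group (5 arrays) was non-perfused kidneys. The MSC group (4 arrays) was kidneys perfused for 4 hrs at 4°C with Belzer solution, a cold organ preservation fluid, that carried 3000000 mesenchymal stromal cells. These cells were grown from bone marrow of Sprague Dawley rats with an EGFP transgene. The sample titles of the NP arrays also name perfusion with Belzer solution for 4 hrs, whereas their treatment field and the study's methods give them as not perfused, and they were grouped by the treatment field. Cold perfusion and the added cells came together in the MSC group, so that their parts cannot be told apart on these arrays. No array of kidneys perfused with the solution alone was analysed here, and ages were not given.

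Kruppel-like factors bind GC-rich and CACCC elements in DNA through a run of zinc fingers at the carboxyl end, and each member activates or represses genes according to the partners that its other end recruits. In the kidney, Klf2 and Klf4 are known from the endothelium, where flow induces them. Klf15 is known from podocytes and from the glucocorticoid response, Klf6 as an early gene of tubular injury, and Klf10 and Klf11 as early genes of TGF-beta signalling.

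The probe sequences show what the arrays read for members that share this DNA-binding end. Probes were 60 bases long. The Klf2 probe (chr16:17942544-17942603 of rn4, minus strand) and the second Klf5 probe (within chr15:83106653-83107797 of rn4, plus strand, across a splice junction) both translate to a zinc finger. Bases that they share in an ungapped alignment are in capitals.
Klf2 probe: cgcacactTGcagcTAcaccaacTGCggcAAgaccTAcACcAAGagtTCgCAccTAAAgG
Klf5 second probe: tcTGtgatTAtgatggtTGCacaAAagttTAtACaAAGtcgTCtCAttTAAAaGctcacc
They shared 25 of 54 aligned bases, 46.3%. This was the highest share among the 55 pairs that the 11 probes form, and the next was 44.2%, for the other Klf5 probe and the Klf6 probe. The Klf6 probe (chr17:75579782-75579841 of rn4, minus strand) is shown because the Klf6 differences on the slides had opposite signs, as described further on. Its capitals mark the linker that joins neighbouring zinc fingers.
Klf6 probe: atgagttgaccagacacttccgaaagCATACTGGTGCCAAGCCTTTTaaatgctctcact

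RefSeq promoter windows (GRCr8) were found for 7 of the 10 genes, and the 250 bases before the annotated start were searched on both strands. CACCC, the element that the family itself binds, was in 4 of the 7 windows, those of Klf5, Klf7, Klf9 and Klf15, and in 49.2% of all 33469 windows. GGGCGG was in the windows of Klf6, Klf7 and Klf11, and in 30.5% of all windows. TGACGT, most of the cAMP response element, was in those of Klf9 and Klf15, and in 6.95% of all. The Klf15 window (chr4:124522765-124523014, plus strand) is printed because Klf15 had the smallest p among the members. Its capitals mark CACCC, read on the other strand, and TGACGT.
Klf15 promoter: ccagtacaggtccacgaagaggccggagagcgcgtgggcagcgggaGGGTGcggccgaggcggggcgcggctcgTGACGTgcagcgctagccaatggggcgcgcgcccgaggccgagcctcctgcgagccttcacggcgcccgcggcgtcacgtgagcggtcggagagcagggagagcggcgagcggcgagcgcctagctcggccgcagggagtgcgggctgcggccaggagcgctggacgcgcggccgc
A match is a run of letters in this window and not a site of binding.

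The arrays were comparable in signal. Between 65.6% and 74.3% of gene spots were well above background, with no saturated gene spot. They came from 2 slides, told apart by their barcodes. NP replicates 1 to 3 and the MSC arrays numbered 1 and 2 were on slide 1, and all other arrays on slide 2. The label of kidney was borne out by all 10 of the proximal tubule markers, which passed the filter. Genes of perirenal fat stood out on MSC replicates 3 and 4, and values without these 2 arrays are given for members and named genes where they moved by over 1.5 times or crossed an unadjusted p of 0.05. These were also the only MSC arrays of slide 2. Fits without them set MSC arrays of slide 1 against NP arrays of both slides, so fat and slide cannot be told apart there. Nothing in the labels says that arrays share an animal. Levels below are log2 intensities after normalization between arrays, and differences are MSC minus NP on that log2 scale with the standard error (SE) of limma's moderated test. The false discovery rate (FDR) was computed over all 15628 probes, and a probe was called at an FDR under 0.05.

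No Kruppel-like factor was called. The count was 0 of 9 probes, beside 0% of all probes tested. At an unadjusted p under 0.05, Klf2 was higher and Klf15 lower in MSC kidneys, 2 of 9 probes beside 11.7% of all probes. By direction, that was 1 of 9 higher beside 6.52% of all probes, and 1 of 9 lower beside 5.16%. The median difference of the 9 members was 0.05, and that of all probes was -0.01. The ranges of the groups overlapped for every one of the 9, whereas 5.3% of all probes had groups that did not overlap. The members lay on both sides of 0, with 5 above it and 4 below.

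**Figure D1:**
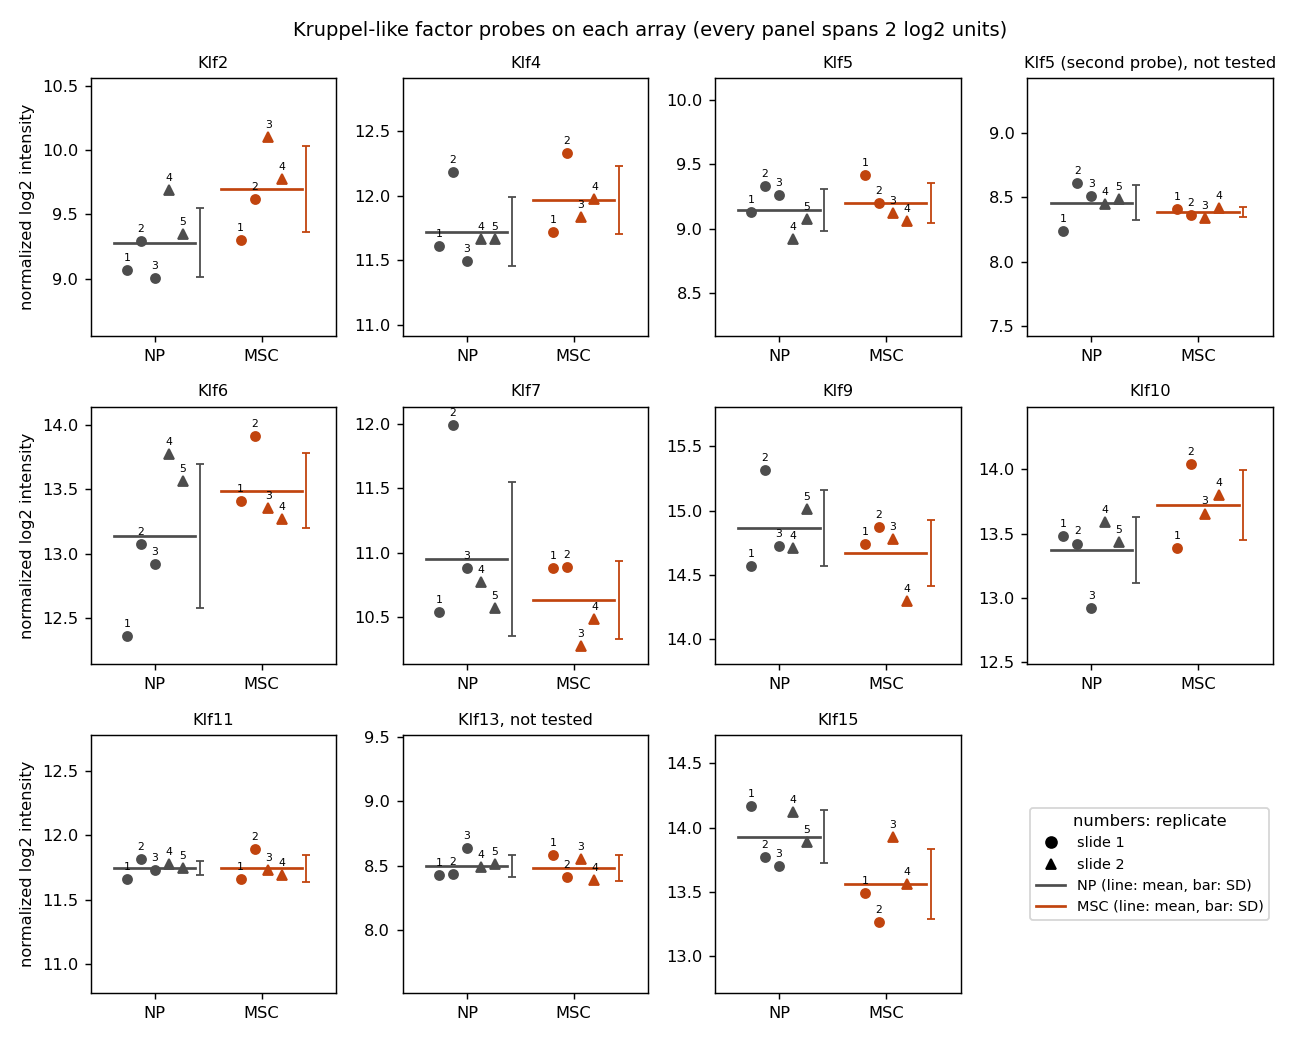
Normalized log2 intensity (vertical axis, 2 log2 units in every panel) of each of the 11 probes in the NP group (grey) and the MSC group (orange), with replicate numbers beside the points, circles for slide 1, triangles for slide 2, a line at the mean and a bar of 1 SD. Groups overlap in every panel, Klf2 lies mostly higher and Klf15 mostly lower in MSC, and NP replicate 2 stands above the other NP arrays for Klf4 and Klf7.

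Klf2 and Klf4 are the members induced in endothelium by flow. The Klf2 probe gave 9.07, 9.29, 9.01, 9.69 and 9.34 on NP replicates 1 to 5 and 9.30, 9.62, 10.10 and 9.77 on MSC replicates 1 to 4. The highest 2 values were those of MSC replicates 3 and 4, and the third highest was that of NP replicate 4, all of slide 2. The means were 9.28 ± 0.27 (SD, n = 5) and 9.70 ± 0.33 (SD, n = 4), a difference of 0.42 (SE 0.18, 95% interval 0.02 to 0.82, unadjusted p = 0.0405, FDR 0.414 by limma), or 1.34-fold. This difference was 0.34 within slide 1 and 0.42 within slide 2, so that both slides had the higher mean in MSC kidneys. Without MSC replicates 3 and 4, whose fat gene signal was highest, it was 0.18 (unadjusted p = 0.377). These were also the only MSC arrays of slide 2, so fat and slide cannot be told apart in that fit. When 1 array at a time was left out, Klf2 was past an unadjusted p of 0.05 in 2 of 9 fits, those without NP replicate 4 and without MSC replicate 1, and the lowest difference was 0.29 (unadjusted p = 0.129), without MSC replicate 3. It was 0.74 (unadjusted p = 0.0396) on Feature Extraction's background-subtracted signal with 75th percentile scaling, beside 0.46 (unadjusted p = 0.0539) with that scaling alone.

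The Klf4 probe (chr5:73446994-73447053 of rn4) gave 11.61, 12.18, 11.49, 11.66 and 11.66 in the NP group and 11.72, 12.33, 11.83 and 11.98 in the MSC group. NP replicate 2 was the only NP array inside the range of the MSC group. The difference was 0.24 (SE 0.16, unadjusted p = 0.163, FDR 0.575), and it was 0.26 within slide 1 and 0.24 within slide 2. Without NP replicate 2 it was 0.36 (unadjusted p = 0.0209), and without MSC replicate 2, the highest array, 0.12 (unadjusted p = 0.455).

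Endothelial markers had no common direction. Of the 10 markers, 5 had higher and 5 lower means in MSC kidneys, with a median difference of -0.02, and only Vwf was past an unadjusted p of 0.05 with a difference of -0.23. Their summed intensity ran from 102204 to 154604 in the NP group and from 95404 to 153715 in the MSC group. In tissue of many cell types, fewer cells of a type and less RNA per cell cannot be told apart.

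The list of endothelial target genes, which holds genes that Klf2 and Klf4 are known to raise or repress, had 9 of 12 genes tested, with 7 higher and 2 lower means and a median difference of 0.35, beside -0.01 over all probes. Because the list holds both kinds, neither its median nor its count of higher means shows whether targets followed Klf2 or Klf4. The median was 0.14 with array weights and 0.22 without NP replicate 3, and without MSC replicates 3 and 4 there were 5 higher and 4 lower means with a median of 0.33. No gene was called. Thbd, thrombomodulin, is a gene that Klf2 is known to raise, and it ran from 11.81 to 13.14 in the NP group and from 12.38 to 12.89 in the MSC group (difference 0.35, SE 0.23, unadjusted p = 0.16). Its difference was 0.55 (unadjusted p = 0.00512) without NP replicate 2 and 0.22 without NP replicate 3. Nos3, the endothelial nitric oxide synthase and also known as raised by Klf2, ran from 9.23 to 9.56 and from 9.03 to 9.40, with a difference of -0.18 (SE 0.10, unadjusted p = 0.102), which was -0.11 without MSC replicate 2 and -0.29 without MSC replicates 3 and 4. Targets known to be raised by Klf2 thus lay on both sides of 0.

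Upstream of Klf2 and Klf4 lies a kinase chain that ends in MEK5, ERK5 and the MEF2 factors. Of 10 tested genes of this list, 2 had higher and 8 lower means, with a median of -0.14, none called and 1 past an unadjusted p of 0.05. That gene, Map3k3, encodes MEKK3, the kinase above MEK5. It gave 11.15, 11.89, 11.52, 11.36 and 11.21 in the NP group and 10.83, 10.86, 10.84 and 10.90 in the MSC group, so that every MSC array lay below every NP array, as for 2.16% of all probes. The difference was -0.57 (SE 0.14, unadjusted p = 0.00223, FDR 0.333). Map2k5, which encodes MEK5 itself, was also separated, with NP arrays from 9.56 to 9.79466 and MSC arrays from 9.79472 to 9.85, a gap far below the spread within either group (difference 0.16, SE 0.08, unadjusted p = 0.0648). Piezo1, the mechanically gated channel, had a difference of 0.21 (SE 0.11, unadjusted p = 0.0998), and 0.09 without MSC replicates 3 and 4. It was 0.11 without MSC replicate 3 alone and 0.12 with array weights. The NP mean of Piezo1, 8.74, lay at the limits of the filter on low signal, which were 8.75 to 8.87 over the arrays.

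**Figure D2:**
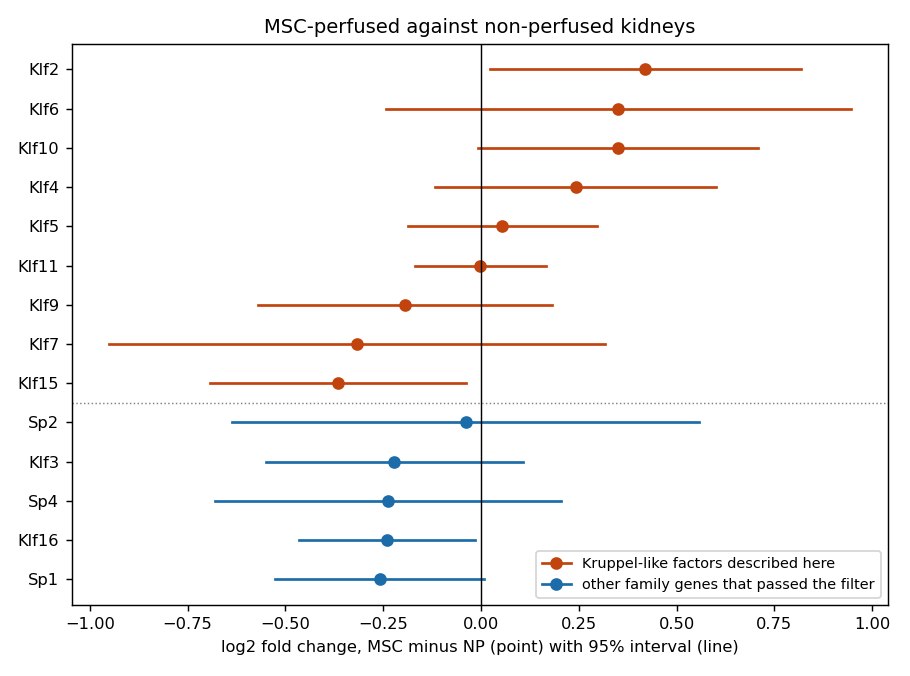
Difference MSC minus NP (horizontal axis, log2) with its 95% interval for the 9 members that passed the filter (orange) and the 5 other family genes that passed it (blue). The intervals of Klf2, Klf15 and Klf16 leave out 0, and those of the other genes span it.

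Klf15 is a glucocorticoid-induced factor that is known in muscle and liver for amino acid breakdown and in the kidney for podocyte differentiation. The Klf15 probe (chr4:124726755-124726814 of rn4) gave 14.16, 13.78, 13.70, 14.12 and 13.89 in the NP group and 13.49, 13.27, 13.93 and 13.57 in the MSC group. MSC replicates 1, 2 and 4 lay below every NP array, and MSC replicate 3 lay inside the NP range. The means were 13.93 ± 0.21 (SD, n = 5) and 13.56 ± 0.27 (SD, n = 4), a difference of -0.37 (SE 0.15, 95% interval -0.69 to -0.04, unadjusted p = 0.0316, FDR 0.392 by limma), or 0.776-fold. Both slides had the lower mean in MSC kidneys, by -0.50 within slide 1 and -0.26 within slide 2. Without MSC replicates 3 and 4 the difference was -0.55 (unadjusted p = 0.00851), and without MSC replicate 2 it was -0.27 (unadjusted p = 0.102). With 1 array at a time left out, Klf15 was past an unadjusted p of 0.05 in 4 of 9 fits, those without NP replicate 2, 3 or 5 or MSC replicate 3.

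Podocyte markers were lower in mean for 5 of 5 genes tested, with none past an unadjusted p of 0.05 and a median of -0.33. Without MSC replicates 3 and 4 there were 2 higher and 3 lower means, with a median of -0.07. Their summed intensity ran from 25010 to 43333 in the NP group and from 18664 to 35599 in the MSC group, and MSC replicate 4 had the lowest score of all arrays, -0.94. A list's score on an array averages how far its genes lie from their own means over all arrays. Klf15 was not lowest on that array. The part of podocyte content in the Klf15 value was not tested.

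The list of metabolic and podocyte target genes had 8 genes tested, with 2 higher and 6 lower means and a median of -0.11. Prodh, the proline dehydrogenase, was the 1 gene past an unadjusted p of 0.05, and it is known as a target that Klf15 raises. It gave 9.34, 9.30, 9.52, 9.31 and 9.60 in the NP group and 9.75, 9.75, 9.72 and 9.93 in the MSC group. Every MSC array lay above every NP array, as for 3.15% of all probes, and the difference was 0.37 (SE 0.09, unadjusted p = 0.00219, FDR 0.333), the opposite sign to Klf15. Gpt, an alanine aminotransferase, had a difference of -0.15 (SE 0.12, unadjusted p = 0.224), and -0.26 without MSC replicates 3 and 4 or -0.25 (unadjusted p = 0.0385) without MSC replicate 3 alone. Nphs1, the nephrin gene of the podocyte slit diaphragm, had a difference of -0.33 (SE 0.27, unadjusted p = 0.256), which was -0.02 without MSC replicate 4, -0.50 without MSC replicate 2 and 0.05 without MSC replicates 3 and 4.

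Klf9 is another factor that glucocorticoids induce, and Klf13 is its nearest relative. The Klf9 probe gave 14.57, 15.31, 14.73, 14.71 and 15.01 in the NP group and 14.74, 14.87, 14.78 and 14.30 in the MSC group. NP replicate 2 was the highest and MSC replicate 4 the lowest of the 9 arrays, and the others overlapped. The difference was -0.19 (SE 0.17, unadjusted p = 0.278, FDR 0.672). It was -0.08 without NP replicate 2, -0.07 without MSC replicate 4 and -0.06 without MSC replicates 3 and 4. The Klf13 probe did not pass the filter, although it was well above background on 8 arrays, and it ran from 8.43 to 8.64 in the NP group and from 8.38 to 8.58 in the MSC group. Fitted without the filter, its difference was -0.02 (SE 0.06).

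Glucocorticoid receptor and target genes were spread around 0, with 6 of 11 higher and 5 lower means and a median of 0.08. The sign of that median turned without NP replicate 1 (-0.13), without MSC replicate 2 (-0.04) and with array weights (-0.0030). Hsd11b2, which inactivates corticosterone in the distal nephron, was the 1 gene past an unadjusted p of 0.05. It gave 16.63, 15.43, 15.89, 16.11 and 16.33 in the NP group and 16.78, 16.56, 16.58 and 16.91 in the MSC group, a difference of 0.63 (SE 0.21, unadjusted p = 0.0136, FDR 0.333), and 0.59 (unadjusted p = 0.0745) without MSC replicates 3 and 4. Markers of distal segments had the same sign. The intercalated cell markers had higher means for 6 of 6 genes and the thick ascending limb markers for 5 of 6, and 4 genes of each list were past an unadjusted p of 0.05. The distal convoluted tubule markers were higher in mean for 3 of 3 and the principal cell markers for 5 of 7, with 2 genes of each past that threshold. That sign was not particular to distal segments, since proximal tubule markers were higher in mean for 8 of 10, with 2 past the threshold. Summed intensity of the principal cell list ran from 360254 to 399065 in the NP group and from 343383 to 533081 in the MSC group. For the distal convoluted tubule list it ran from 11118 to 18384 and from 20780 to 26378, so that the groups did not overlap. It ran from 25691 to 43850 and from 43420 to 55569 for intercalated cells, and from 282762 to 484992 and from 368556 to 572147 for the thick ascending limb, whose scores did not overlap (at most -0.02 in NP and at least 0.03 in MSC). The part of these segments in the Hsd11b2 value was not tested. Fkbp5, a chaperone gene that the receptor induces, had a difference of -0.59 (SE 0.33, unadjusted p = 0.101). It was -0.23 without MSC replicates 3 and 4, -0.21 with array weights and -0.86 (unadjusted p = 0.0051) without NP replicate 4. Zbtb16, another induced gene, had -0.43 (SE 0.35, unadjusted p = 0.244), and -0.0076 without MSC replicates 3 and 4. It was -0.22 without NP replicate 2, -0.25 without MSC replicate 3 and -0.0030 with array weights. On NP replicate 4 (8.67) and MSC replicates 3 and 4 (8.49 and 8.71) it lay below the limit of the filter. Over all arrays, neither Fkbp5 nor Zbtb16 was past an unadjusted p of 0.05, nor was Klf9.

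Klf6 is induced early after injury, and Klf10 belongs to the early genes of TGF-beta. The Klf6 probe gave 12.36, 13.07, 12.92, 13.77 and 13.56 in the NP group and 13.41, 13.92, 13.36 and 13.27 in the MSC group. NP replicates 4 and 5, both of slide 2, were higher than the NP arrays of slide 1 by 0.88 in mean, whereas the MSC arrays of slide 2 differed from those of slide 1 by -0.35. The MSC minus NP difference over all arrays was 0.35 (SE 0.27, unadjusted p = 0.217, FDR 0.63). It was 0.16 without NP replicate 1, 0.21 without MSC replicate 2 and 0.09 with array weights. By slide it was 0.88 within slide 1 and -0.35 within slide 2. The test of the change between slides, which was chosen after these values were seen, gave -1.23 (SE 0.35, unadjusted p = 0.00813, FDR above 0.99 by limma), beside 1.95% of all probes past an unadjusted p of 0.05 in that test and 0% called. The other 8 members had unadjusted p of 0.404 or more in it.

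**Figure D3:**
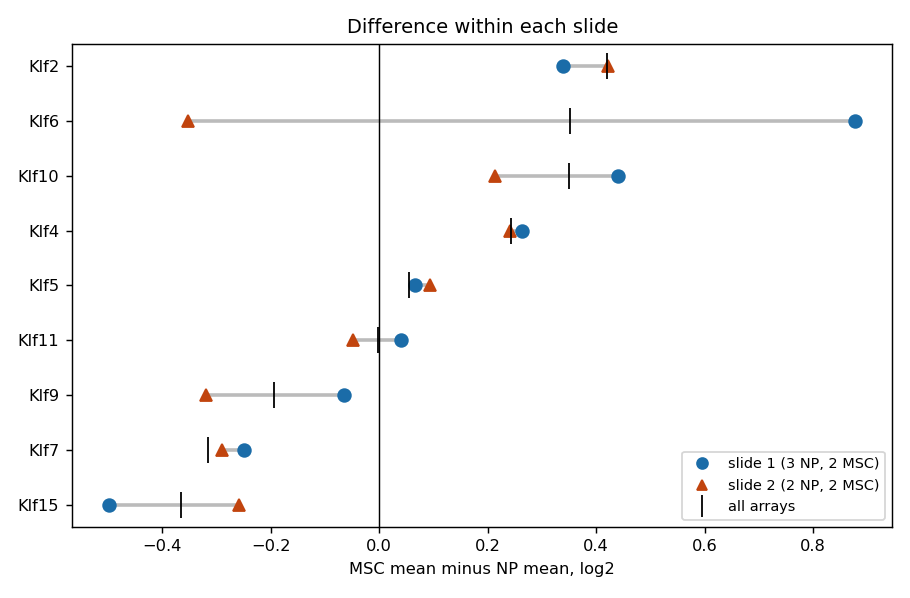
MSC mean minus NP mean (horizontal axis, log2) of the 9 tested members within slide 1 (blue circles, 3 NP and 2 MSC arrays), within slide 2 (orange triangles, 2 NP and 2 MSC arrays) and over all arrays (black ticks). Klf6 moves from 0.88 to -0.35 and Klf11 lies close to 0 on either side, whereas the other members keep their side of 0.

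The Klf10 probe (chr7:73821297-73821356 of rn4) gave 13.48, 13.42, 12.93, 13.59 and 13.44 in the NP group and 13.39, 14.04, 13.66 and 13.80 in the MSC group. MSC replicates 2, 3 and 4 lay above every NP array, and MSC replicate 1 was within the NP range. The difference was 0.35 (SE 0.16, 95% interval -0.01 to 0.71, unadjusted p = 0.0535, FDR 0.436), and it was 0.44 within slide 1 and 0.21 within slide 2. NP replicate 3 was the lowest array, and without it the difference was 0.24 (unadjusted p = 0.108). Without MSC replicate 1 it was 0.46 (unadjusted p = 0.0181), without NP replicate 4 it was 0.41 (unadjusted p = 0.0403), and without MSC replicates 3 and 4 it was 0.35 (unadjusted p = 0.161). Klf11, the close relative of Klf10, gave 11.66, 11.81, 11.73, 11.78 and 11.74 in the NP group and 11.66, 11.89, 11.73 and 11.69 in the MSC group. These values scarcely spread, and the 95% interval of the difference ran from -0.17 to 0.17 around -0.0019 (SE 0.08, unadjusted p = 0.981).

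Immediate early genes, the class to which Klf2, Klf4, Klf6 and Klf10 are often counted, had 10 of 18 genes with higher and 8 with lower means and a median of 0.35. That median was 0.02 with array weights, 0.23 without NP replicate 3, 0.22 without MSC replicate 4 and 0.09 without MSC replicates 3 and 4. None was called and 2 were past an unadjusted p of 0.05, both higher in mean. Fos, a subunit of AP-1, gave 10.98, 10.19, 9.93, 12.63 and 12.07 in the NP group and 11.65, 12.43, 13.04 and 13.30 in the MSC group. The NP arrays of slide 2 were higher than those of slide 1, and the same order was seen in the MSC group. The difference was 1.44 (SE 0.57, unadjusted p = 0.0298, FDR 0.39). It was 0.88 (unadjusted p = 0.26) without MSC replicates 3 and 4, and 0.73 (unadjusted p = 0.192) with array weights. Ier5 had a difference of 0.52 (SE 0.22, unadjusted p = 0.0398), and 0.34 (unadjusted p = 0.268) without MSC replicates 3 and 4. With array weights it was 0.26 (unadjusted p = 0.251). Nr4a1, an orphan nuclear receptor, had a difference of 0.81 (SE 0.46, unadjusted p = 0.109). It was 0.25 without MSC replicates 3 and 4 and 0.25 with array weights. The score of the list was -0.31, -0.40, -0.70, 0.43 and 0.31 on NP replicates 1 to 5 and -0.35, 0.24, 0.31 and 0.47 on MSC replicates 1 to 4. On slide 1 the NP arrays were all below 0, and on slide 2 all 4 arrays of both groups were above it. Klf2 had the same order of slides within each group, higher on slide 2 by 0.39 in NP and by 0.48 in MSC arrays, whereas Klf4 differed there by -0.10 and -0.12. The part of the slide in the early gene levels was not tested.

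**Figure D4:**
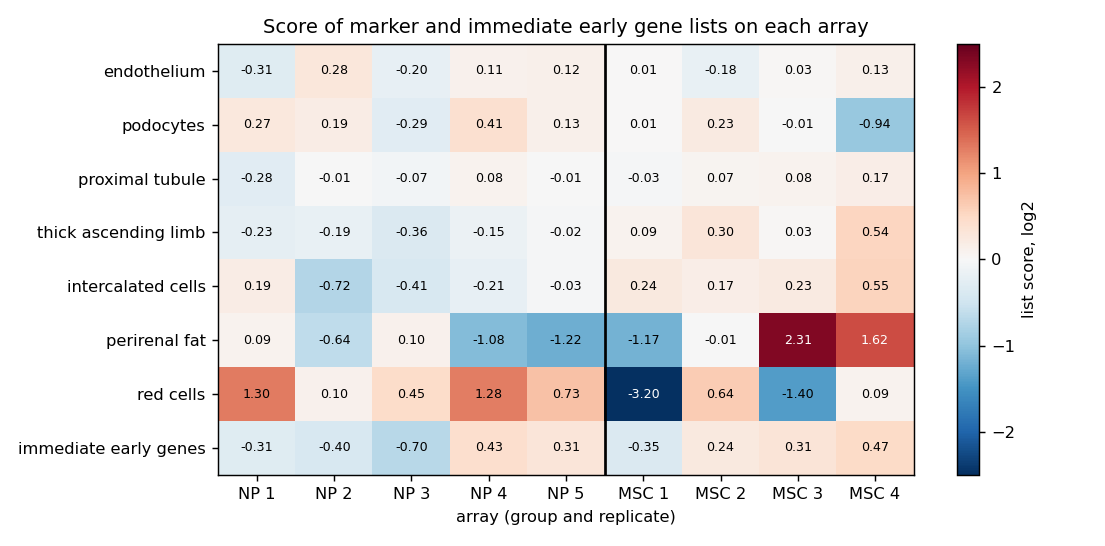
Score (colour and printed value, log2, the mean deviation of the genes of a list from their own means) of 7 cell type marker lists and the immediate early genes on each array, NP to the left and MSC to the right of the line. Fat genes are highest on MSC replicates 3 and 4 (2.31 and 1.62), red cell genes lowest on MSC replicate 1 (-3.20), and endothelial scores stay between -0.31 and 0.28.

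TGF-beta pathway genes had 2 higher and 8 lower means of 10 tested, with a median of -0.13, while Klf10 and Klf11 gave 0.35 and -0.0019. Tgfbr2, the type II receptor, was the 1 gene past an unadjusted p of 0.05. It gave 9.47, 10.27, 9.80, 9.76 and 9.75 in the NP group and 9.01, 9.54, 9.37 and 9.67 in the MSC group, a difference of -0.41 (SE 0.17, unadjusted p = 0.0372, FDR 0.407). Without NP replicate 2 it was -0.30 (unadjusted p = 0.0683), and without MSC replicate 1 it was -0.29 (unadjusted p = 0.12). Ski, a repressor of SMAD proteins, had a difference of -0.88 (SE 0.40, unadjusted p = 0.0537), or -0.56 without NP replicate 2, with NP arrays from 9.37 to 11.60 and MSC arrays from 8.91 to 9.82. Smad2, a signal carrier of the pathway, had one of 0.26 (SE 0.12, unadjusted p = 0.0561), and 0.13 (unadjusted p = 0.237) with array weights. On NP replicate 1 it was 8.69, below that array's filter limit of 8.76.

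Partner proteins set whether a Kruppel-like factor activates or represses. Among 11 tested genes for corepressors, coactivators and ubiquitin ligases, 3 had higher and 8 lower means, with a median of -0.11 and 2 past an unadjusted p of 0.05, both lower in mean. Smurf1, a ubiquitin ligase that is known to target Klf2, gave 9.94, 10.02, 10.04, 9.85 and 9.72 in the NP group and 9.60, 9.67, 9.31 and 9.57 in the MSC group. Every MSC array lay below every NP array, and the difference was -0.38 (SE 0.10, unadjusted p = 0.0039, FDR 0.333). Sin3a, the corepressor that Klf9, Klf10, Klf11 and Klf13 bind, ran from 9.926 to 10.997 in the NP group and from 9.68 to 10.21 in the MSC group, with a difference of -0.54 (SE 0.20, unadjusted p = 0.0217, FDR 0.372). Ep300, a coactivator, had a difference of -0.26 (SE 0.13, unadjusted p = 0.068), and -0.16 without NP replicate 2.

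Klf5 is the member known from collecting duct epithelium and from proliferating epithelia. Its tested probe (chr15:83118108-83118167 of rn4) gave 9.13, 9.34, 9.26, 8.92 and 9.07 in the NP group and 9.42, 9.20, 9.12 and 9.06 in the MSC group. The groups lay within each other's range apart from single arrays at each end, and the difference was 0.05 (SE 0.11, 95% interval -0.19 to 0.30, unadjusted p = 0.623), and 0.16 (unadjusted p = 0.268) without MSC replicates 3 and 4. The second probe, whose zinc finger sequence is given with the probes, did not pass the filter. It ran from 8.24 to 8.61 in the NP group and from 8.34 to 8.42 in the MSC group, and its difference, fitted without the filter, was -0.08 (SE 0.07). The probes had opposite signs, and neither was past an unadjusted p of 0.05.

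Klf7, a factor best known from neurons, gave 10.54, 11.99, 10.88, 10.77 and 10.57 in the NP group and 10.88, 10.89, 10.27 and 10.49 in the MSC group. NP replicate 2 lay above every other array and carried most of the difference of -0.32 (SE 0.28, unadjusted p = 0.292, FDR 0.683). Without that array the difference was -0.06 (unadjusted p = 0.72). It was -0.09 with array weights, -0.20 without MSC replicate 3 and -0.06 without MSC replicates 3 and 4.

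The remaining family genes, further Kruppel-like factors and the SP factors that share the same zinc fingers, numbered 17 in the list, of which 14 were on the array with 18 probes. Only 6 probes of 5 genes passed the filter. All 5 genes had lower means in MSC kidneys, with a median of -0.24 (-0.10 without NP replicate 2), beside 5 of 9 members with higher means and 48.8% of all probes. No gene was called and 1, Klf16, was past an unadjusted p of 0.05. Klf16 gave 12.83, 13.29, 12.99, 13.05 and 13.22 in the NP group and 12.81, 12.83, 12.92 and 12.79 in the MSC group, a difference of -0.24 (SE 0.10, unadjusted p = 0.0389, FDR 0.409), and -0.26 (unadjusted p = 0.101) without MSC replicates 3 and 4, where no gene of this list was past an unadjusted p of 0.05. Sp1, the broadly expressed activator, had a difference of -0.26 (SE 0.12, unadjusted p = 0.0566). Klf3, a repressor that recruits CtBP, had one of -0.22 (SE 0.15, unadjusted p = 0.164), and -0.10 without NP replicate 2. Sp2 and Sp4 were the remaining tested genes.

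**Figure D5:**
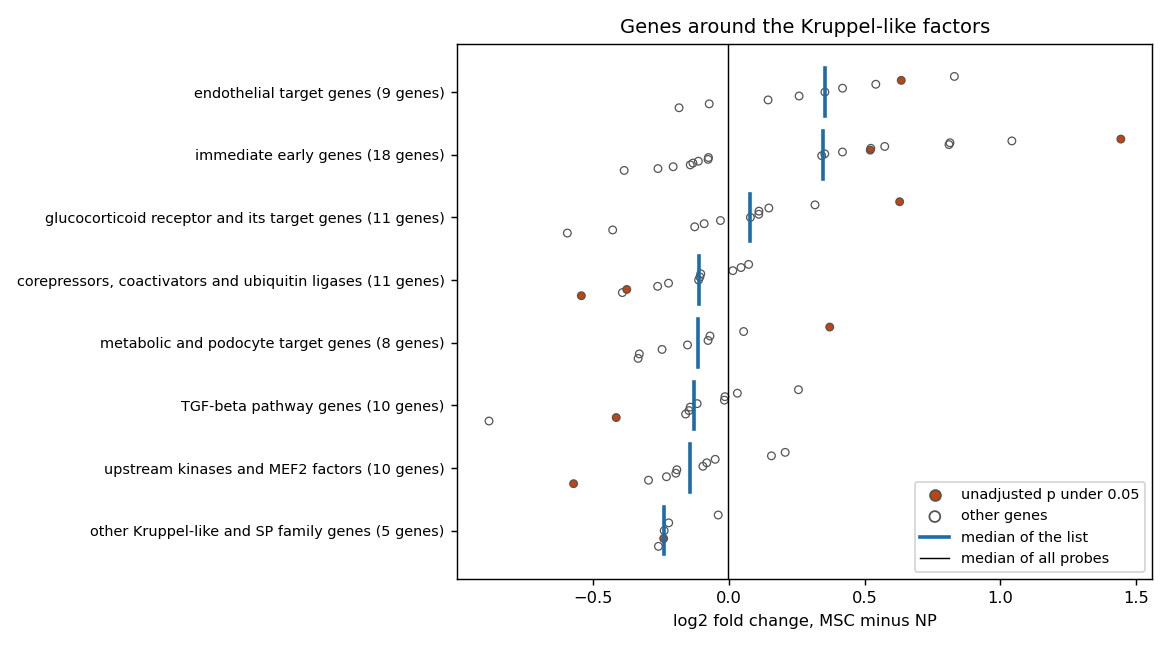
Difference MSC minus NP (horizontal axis, log2) of each tested gene (circles, filled at an unadjusted p under 0.05) in 8 lists around the Kruppel-like factors, with the median of each list (blue bar) and of all probes (black line). Medians run from -0.24 for the other family genes to 0.35 for the endothelial targets and the immediate early genes, with array weights giving 0.14 and 0.02 for the last 2, and no gene was called.

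Fat and blood markers stood apart on single arrays. Fat genes were high on MSC replicates 3 and 4 (scores 2.31 and 1.62), whereas MSC replicate 1 (-1.17) and MSC replicate 2 (-0.01) lay within the NP range. Red cell genes were lowest on MSC replicates 1 and 3 (-3.20 and -1.40), and MSC replicate 2 (0.64) lay within the NP range. Perirenal fat genes had higher means for 7 of 7 genes tested, with a median of 1.43 and 2 past an unadjusted p of 0.05. Their summed intensity was 8952 to 15926 in the NP group and 9316 to 83666 in the MSC group. The 3 red cell genes tested had lower means, all past an unadjusted p of 0.05, with a median of -1.74, and their summed intensity was 53230 to 114412 in the NP group and 4650 to 77412 in the MSC group. Leukocyte markers had 5 of 6 higher means (median 0.20, summed intensity 92142 to 150162 in the NP group and 114785 to 164320 in the MSC group) and none past that threshold. Markers of mesenchymal stromal cells had 5 of 7 higher means (median 0.09, summed intensity 31715 to 79080 and 41447 to 75087), with Col1a1, a collagen of stromal cells, past it at a difference of 1.06 (unadjusted p = 0.00455). Without MSC replicates 3 and 4 no endothelial, stromal or fat marker was past an unadjusted p of 0.05. The intercalated cell, thick ascending limb, principal cell and proximal tubule lists had 1 gene each past it. The red cell and distal convoluted tubule lists had 2 each. Adipose tissue also expresses Klf2, Klf4, Klf5, Klf9 and Klf15. The part of fat in the members' values was not tested beyond the values without MSC replicates 3 and 4, which were also the only MSC arrays of slide 2.

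The genes outside the family whose values over the 9 arrays were most like those of Klf2 were Cldn1, Klhl25 and Pdp2, with root mean square differences of 0.14, 0.15 and 0.15 after each gene's own mean was taken off. Klf2 itself spanned 1.097 over the 9 arrays. For Klf15, which spanned 0.90, they were Lurap1, Unc119b and Zfp689, at 0.12, 0.13 and 0.13. These measures hold over both groups and carry no test.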

How the data were processed

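RNA of 9 kidneys was measured on 1-colour Agilent rat 8x60K arrays. The deposited intensity columns came from Feature Extraction 10.7.3.1, with probe coordinates on rn4. The authors' deposited log2 table of the same arrays was an alternative, and its correlation with the values used here was 0.999896 or more on each array. Spot means (gMeanSignal) were taken to log2 and normalized by cyclic loess with controls at weight 0. Spots flagged as outliers were left out, and spots of a probe were averaged. Probes were kept where the log2 value passed 1.1 times the 95th percentile of negative controls on at least 4 arrays, a reading of the study's wording. limma 3.58.1 in R 4.3.3 was fitted per probe without covariates, with Benjamini-Hochberg FDR over all kept probes. Precision is limited by the number of arrays. Lists used 1 probe per gene, the most variable. The script was tested on simulated data.

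Named genes were every member, the 3 genes of smallest p in each pathway list, and the 3 genes nearest to Klf2 and to Klf15. The members and lists were chosen with earlier results of these data known. The result of 1 endothelial target gene is not reported here. Vwf, Col1a1, Sp2 and Sp4 were named after their values were seen. Replicate numbers were not taken to pair the arrays. Promoter windows are RefSeq's. Alternatives covered filters, scaling, background, slide, replicate block, weights and each left-out array.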

Additional observations from a re-analysis of the deposited data

Results flagged for a closer look

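In 3 of 18 groups of arrays, where 0.9 would be passed by chance, 1 array stood apart from the others of its group by Dixon's test for an outlying value. For Klf10, NP replicate 3 was the lowest, at 12.93 beside 13.42 to 13.59 on the other NP arrays, and its gap to the nearest was 0.747 of the range of the group. For Klf4, NP replicate 2 was the highest, at 12.18 beside 11.49 to 11.66, with a gap of 0.753 of the range. For Klf7, NP replicate 2 was again the highest, at 11.99 beside 10.54 to 10.88, with a gap of 0.765 of the range.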

How the results depend on the processing

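No member and no list gene was called at an FDR under 0.05 in any of 24 alternatives. Over all probes the calls were 0 in 23 of them and 2 with array weights, and the share past an unadjusted p of 0.05 was 6.16% (median scaling, 962 probes) to 16.4% (without NP replicate 1, 2570 probes) beside 11.7% (1825 probes). Without the filter it was 8.77% (2663 of 30367 probes). The count of members past that p was 2, and it was 1 with 75th percentile scaling (Klf15), with median scaling (Klf2), with the replicate number as a block (Klf2, 0.44, unadjusted p = 0.0484) and without MSC replicates 3 and 4 (Klf15), an alternative chosen after seeing the data. Leaving out 1 array gave 0 to 2, with 0 without NP replicate 1, MSC replicate 2 or MSC replicate 4. With array weights the 2 were Klf15 and Klf4. Correlations of same-numbered arrays were 0.20, 0.32, -0.35 and 0.05. They were the highest with any NP array for MSC replicates 1 and 2 and not for MSC replicates 3 and 4. The block rests on a shared number only. Klf2 ranged from 0.18 to 0.74 and Klf15 from -0.55 to -0.27 and neither changed sign. Klf11 changed sign at 0.0082 with 75th percentile scaling, at 0.030 without MSC replicates 3 and 4, and between -0.052 and 0.027 with 1 array left out, as did Klf5 between -0.017 and 0.10. The causes were not tested. Of the list medians, that of corepressors and partners was -0.28 without NP replicate 1 beside -0.11, that of TGF-beta genes -0.07 without NP replicate 2 beside -0.13, that of metabolic and podocyte targets -0.05 without MSC replicate 4 and -0.21 without MSC replicate 3 beside -0.11, and that of upstream kinases -0.09 without NP replicate 2 or 4 beside -0.14. Of the named list genes, Fos, Ier5, Klf16, Sin3a and Tgfbr2 lost an unadjusted p under 0.05 without at least 1 array. With array weights Fos and Ier5 lost it, and Ski, Ep300, Nos3 and Thbd gained it. Such a p was gained by Ski, Ep300 and Klf3 without NP replicate 1, by Sp1 and Map2k5 without NP replicate 1 or 5, by Nos3 without NP replicate 3, by Nr4a1 without NP replicate 4 and by Smad2 without NP replicate 5 or MSC replicate 2.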
